A study of Mus musculus with 12 samples.

Results

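H3K36ac is the acetylation of lysine 36 on the tail of histone H3, a mark found mainly at the promoters of active genes. It is written by acetyltransferases of the Gcn5 family and removed by SIRT7, an NAD-dependent deacetylase. The same lysine can carry methyl groups instead, written by enzymes such as SETD2, NSD1 and ASH1L, so a residue that is acetylated cannot be methylated at the same time. Spermatogonia are the germ cells at the base of the testis tubule that self-renew or enter differentiation towards meiosis.

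The regions described here are the H3K36ac peaks of wild-type (WT) spermatogonia, each called in a WT ChIP library against the input chromatin of the same sample. They are 1264 of the 8740 peaks in the 6 lists of the study, which also mapped Sirt7-/- cells. All mice were of the 129S1/Sv strain and the cells were taken on postnatal day (Pnd) 5, with 50000 cells in each immunoprecipitation. The WT samples bear the numbers 2, 3 and 4 and each came from a different mouse; the 3 WT inputs entered only through the peak calling. The cells are a population enriched in spermatogonia by plating and not a pure one, in which the study found most cells positive for PLZF, a marker of undifferentiated spermatogonia.

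WT replicate 2 had 906 peaks, WT replicate 3 had 64 and WT replicate 4 had 294, with a mean of 421 ± 435 (SD, n = 3). The lists hold no read counts, so the reads behind a peak are not known and a gene without a peak is not shown to lack the mark. Before alignment, as the study states, the ChIP libraries of WT replicates 2 and 3 were of similar depth and that of replicate 4 was shallower. The input of replicate 3 was the deepest of the WT inputs. The part of depth in the peak counts was not tested. For each peak the lists give the fold over input and the -log10 of the adjusted p (q), both averaged over the peak. These values rank peaks within 1 list and are not on a scale shared between lists. Peaks of the 3 lists that overlapped or touched were merged into 1066 WT regions on mm10. A region counted as a promoter region where its nearest edge lay within 3000 bp of a RefSeq gene start, counting the start of every transcript with a tabulated promoter.

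The promoters under WT regions were rich in CpG, and subsets held the core of a known promoter element, so the sequences of some are given first. They are RefSeq promoters of GRCm38.p6, the assembly of mm10, from 250 bases before to 50 bases after the start, 5′ to 3′ on the strand of the gene. The promoter of Tardbp, which encodes the RNA-binding protein TDP-43 and had a peak in all 3 lists, lies at chr4:148626947-148627246 on the minus strand. That of Gfra1, the GDNF receptor of undifferentiated spermatogonia, lies at chr19:58455349-58455648 on the minus strand and had a peak in none. Capitals mark the CpG dinucleotides, 27 in Tardbp and 12 in Gfra1.
Tardbp: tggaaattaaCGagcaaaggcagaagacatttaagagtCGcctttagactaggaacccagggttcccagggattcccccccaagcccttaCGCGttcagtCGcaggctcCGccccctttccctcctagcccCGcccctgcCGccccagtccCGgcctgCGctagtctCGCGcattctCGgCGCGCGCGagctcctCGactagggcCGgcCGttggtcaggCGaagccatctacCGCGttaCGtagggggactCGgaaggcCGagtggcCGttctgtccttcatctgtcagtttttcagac
Gfra1: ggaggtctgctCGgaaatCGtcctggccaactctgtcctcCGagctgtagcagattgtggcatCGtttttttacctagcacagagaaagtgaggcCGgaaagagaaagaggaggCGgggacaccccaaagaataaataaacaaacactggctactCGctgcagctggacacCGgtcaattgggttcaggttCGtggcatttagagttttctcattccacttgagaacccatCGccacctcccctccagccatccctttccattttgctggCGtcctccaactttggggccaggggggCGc

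The letters TCTCGCGA, the core of an element of TATA-less CpG-rich promoters, are shown in capitals, on the strand on which they were found, in the promoters of 5 genes with a region in at least 2 lists. Adnp (chr2:168207063-168207362, minus strand) encodes a chromatin protein with zinc fingers and had a peak in all 3 lists, as had B230219D22Rik (chr13:55692874-55693173, plus strand), a gene of unknown function. Smndc1 (chr19:53390585-53390884, minus strand) encodes a splicing factor and had the first peak of WT replicate 2 by q. Eif5 (chr12:111537851-111538150, plus strand) encodes a translation initiation factor, and Cul3 (chr1:80340641-80340940, minus strand) a ubiquitin ligase scaffold. The letters began 240 bases before the start in Adnp, 49 before it in B230219D22Rik, 129 before it in Cul3 and at base 12 after it in Smndc1. Where 10 capitals stand together, both strands match and the matches overlap.
Adnp: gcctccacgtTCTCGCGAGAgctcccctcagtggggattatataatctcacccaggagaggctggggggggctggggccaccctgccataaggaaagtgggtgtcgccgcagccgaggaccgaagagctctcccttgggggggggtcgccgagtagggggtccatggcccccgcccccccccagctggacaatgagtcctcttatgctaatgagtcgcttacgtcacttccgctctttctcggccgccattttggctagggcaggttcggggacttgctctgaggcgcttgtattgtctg
B230219D22Rik: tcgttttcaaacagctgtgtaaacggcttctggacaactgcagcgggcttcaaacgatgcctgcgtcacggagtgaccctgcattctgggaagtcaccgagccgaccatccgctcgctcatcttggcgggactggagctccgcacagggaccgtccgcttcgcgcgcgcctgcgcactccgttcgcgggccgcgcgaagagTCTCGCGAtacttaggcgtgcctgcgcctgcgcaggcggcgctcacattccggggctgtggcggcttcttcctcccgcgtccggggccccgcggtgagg
Smndc1: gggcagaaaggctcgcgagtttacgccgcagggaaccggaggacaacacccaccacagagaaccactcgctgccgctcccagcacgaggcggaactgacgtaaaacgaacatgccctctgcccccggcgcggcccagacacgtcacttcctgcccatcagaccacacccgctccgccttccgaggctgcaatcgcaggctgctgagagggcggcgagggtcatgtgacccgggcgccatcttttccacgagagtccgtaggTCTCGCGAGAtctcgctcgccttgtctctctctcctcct
Eif5: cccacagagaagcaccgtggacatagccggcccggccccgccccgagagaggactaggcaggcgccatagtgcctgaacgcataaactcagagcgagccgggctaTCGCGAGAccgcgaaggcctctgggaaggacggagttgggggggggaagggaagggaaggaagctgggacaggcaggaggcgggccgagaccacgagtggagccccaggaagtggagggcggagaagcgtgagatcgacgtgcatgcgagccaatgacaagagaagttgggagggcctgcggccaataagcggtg
Cul3: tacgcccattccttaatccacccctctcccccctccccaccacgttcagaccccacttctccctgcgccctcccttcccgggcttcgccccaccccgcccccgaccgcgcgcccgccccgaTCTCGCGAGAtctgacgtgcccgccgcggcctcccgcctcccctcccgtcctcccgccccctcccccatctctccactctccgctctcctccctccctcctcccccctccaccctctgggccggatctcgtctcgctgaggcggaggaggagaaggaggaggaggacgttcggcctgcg

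The letters AAGATGGCG, the core of the element bound by YY1, are shown in capitals, on the strand on which they were found, for 2 promoters with a region in 2 lists. Cnot3 (chr7:3645019-3645318, plus strand) encodes a subunit of the CCR4-NOT deadenylase, and Rxrb (chr17:34031562-34031861, plus strand) a retinoid X receptor. In Cnot3 the capitals are the reverse complement, which began at base 17 after the start.
Cnot3: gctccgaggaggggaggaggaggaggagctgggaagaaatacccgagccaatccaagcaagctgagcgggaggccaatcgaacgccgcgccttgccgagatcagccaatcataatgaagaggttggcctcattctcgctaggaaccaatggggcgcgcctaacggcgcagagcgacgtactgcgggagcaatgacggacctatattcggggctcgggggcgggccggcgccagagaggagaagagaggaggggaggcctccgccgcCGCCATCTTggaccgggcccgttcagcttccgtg
Rxrb: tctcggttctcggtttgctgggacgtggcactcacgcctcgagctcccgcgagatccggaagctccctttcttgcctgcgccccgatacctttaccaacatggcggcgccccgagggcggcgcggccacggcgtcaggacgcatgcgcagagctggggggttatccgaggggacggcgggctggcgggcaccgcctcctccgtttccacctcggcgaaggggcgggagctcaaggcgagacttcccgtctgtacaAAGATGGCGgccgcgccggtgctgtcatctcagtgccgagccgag

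Of the 24 regions called in all 3 lists, 22 were promoter regions, 1 lay inside the gene Btbd9 and 1 lay between genes, upstream of a cluster of let-7 microRNAs. The 5p mature forms of the let-7 cluster are shown, and beside them that of let-7i, whose gene lay within 3000 bp of a region called in WT replicates 2 and 4. The 3p forms, which have other seeds, are not shown. Capitals mark the seed, bases 2 to 8, which all 4 share.
let-7a-5p: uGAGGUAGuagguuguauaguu
let-7f-5p: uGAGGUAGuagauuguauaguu
let-7d-5p: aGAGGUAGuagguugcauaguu
let-7i-5p: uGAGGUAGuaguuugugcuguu

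WT H3K36ac was almost wholly a promoter mark in these lists. Of the 1066 merged regions, 1037 were promoter regions, or 97.3% (exact Clopper-Pearson 95% confidence interval 96.1 to 98.2%), and intervals here and below cover counting error only. In single lists the promoter share was 97.5% in WT replicate 2, 95.3% in replicate 3 and 96.6% in replicate 4, with a mean of 96.5 ± 1.08% (SD, n = 3). The start nearest to the region belonged to a protein-coding gene in 959 regions, to a lncRNA gene in 66 and to a gene of another kind in 12. More than 1 protein-coding gene had a start in the window of 167 regions (15.7%), where the peak cannot be given to one of them. Counting only the outermost start of each gene lowered the promoter share to 91.6%.

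The peaks were narrow and sat just downstream of the start. The median width was 373 bp in WT replicate 2, 277.5 bp in replicate 3 and 297 bp in replicate 4, with a mean of 316 ± 50.5 bp (SD, n = 3). The shortest peaks had 210, 216 and 202 bp in the same order, and the first quartiles were 267, 240 and 237 bp. Many peaks thus lay near the shortest width called, and the part of the peak calling in the widths was not tested. The middle of the peak lay downstream of the nearest start in 76.0%, 70.5% and 78.9% of promoter peaks in replicates 2, 3 and 4, with a mean of 75.1 ± 4.26% (SD, n = 3). The median middle lay 231, 200.5 and 238.5 bp into the gene in the same order. In all 3 lists the fullest 100-bp bin was 200 to 300 bp downstream, with 19.6%, 18% and 19.4% of the promoter peaks of replicates 2, 3 and 4. The position thus differed little between lists whose lengths differed widely.

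**Figure D1:**
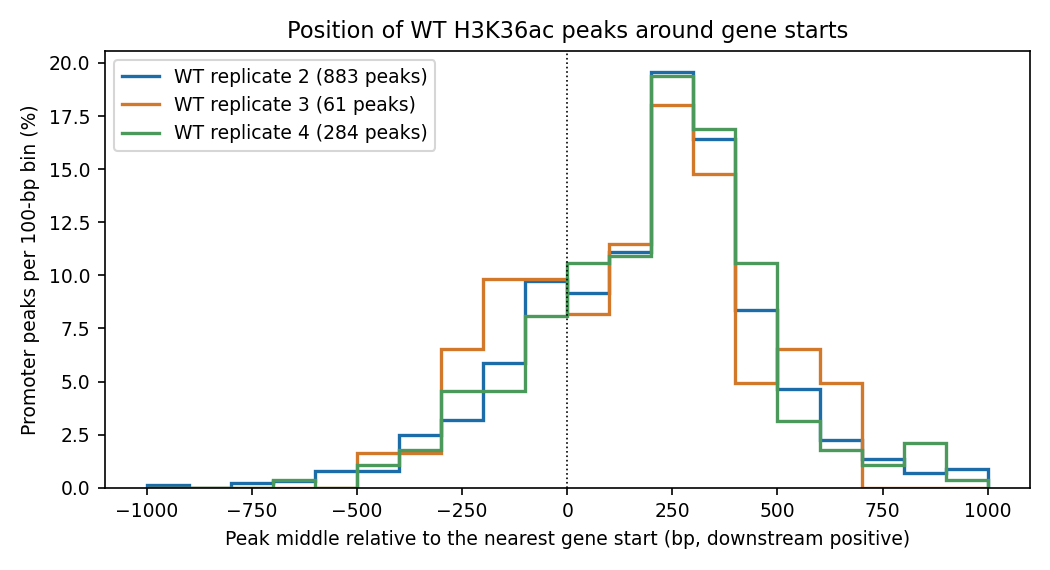
Share of promoter peaks (%) per 100-bp bin of the distance from the nearest gene start to the peak middle (bp, positive downstream), 1 line for each of WT replicates 2, 3 and 4. All 3 lines peak between 200 and 300 bp downstream, at 19.6%, 18% and 19.4%; peaks with a middle over 1000 bp away (1.93%, 1.64% and 2.82%) are not drawn.

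Most WT regions were called in 1 list. Of the 1066 regions, 892 (83.7%) were called in 1 list, 150 (14.1%) in 2 and 24 (2.25%) in all 3. The lists were unequal in length, so recurrence is given as a share of each. In all, 75% of the 64 peaks of WT replicate 3, 52% of the 294 of replicate 4 and 18.9% of the 906 of replicate 2 overlapped a peak of another list. When the peaks of a list were split by q into 4 bins of about equal size, the share fell from the top bin to the bottom bin of WT replicate 2 (30.4%, 18.1%, 15% and 11.9%). The bins of the shorter lists showed no such steady order (75%, 87.5%, 75% and 62.5% in replicate 3, and 54.1%, 63.0%, 56.8% and 34.2% in replicate 4). Without WT replicate 2, the longest list, 331 regions remained and 27 of them were called in both other lists, and without replicate 4 the regions of both other lists numbered 45. The median width was 340 bp for regions of 1 list, 556 bp for 2 and 724 bp for all 3, a comparison in which merging itself widens the regions of several lists. Within single lists, width and -log10 q had rank correlations across peaks of -0.0048, 0.12 and -0.13 in replicates 2, 3 and 4, so that wide and highly ranked peaks were different properties.

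Some of the 24 regions called in all 3 lists stood at genes of RNA-binding proteins or of chromatin and transcription factors. These groups were formed by reading the gene names, and neither has, as formed, a share over all genes beside it. Their fold over input ranged from 3.36 to 7.0. Blcap, a gene of bladder cancer-associated protein whose intron holds the imprinted gene Nnat, had folds of 7.0, 5.30 and 6.72 in WT replicates 2, 3 and 4 (chr2:157566305-157566683). It ranked 2 of 906, 5 of 64 and 9 of 294 by q, near the top of every list. The region at the shared start of Bud31, a spliceosome component, and Pdap1 had folds of 5.96, 6.42 and 6.12 and ranked 15, 3 and 20 (chr5:145140081-145140632). Myl12a, a regulatory light chain of non-muscle myosin whose window also holds Myom1, had folds of 6.61, 5.24 and 5.71 and ranked 13, 11 and 30 (chr17:71001761-71002522). These 3 were high in all lists.

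RNA-binding proteins recurred among the 24, with Pcbp1 and Ddx6 outside the splicing and nuclear RNA-binding list read below. Of that list, 6 of 153 genes had a peak in all 3 lists, against 25 of 21468 protein-coding genes (0.116%). Tardbp had folds of 6.17, 4.30 and 5.82, and its region reached over 712 bp from the start into the gene (chr4:148626299-148627010). It ranked 24 of 906, 34 of 64 and 42 of 294 by q, lowest within the list of WT replicate 3. Matr3, a nuclear matrix protein that binds RNA, had folds of 4.43, 6.39 and 5.69 (chr18:35562210-35562929). By q it went the other way, ranking 440 of 906 in replicate 2 but 2 of 64 in replicate 3. Over the regions that 2 lists shared, the rank correlation of -log10 q was 0.57 between replicates 3 and 4 (27 regions), 0.27 between replicates 2 and 4 (150 regions) and 0.04 between replicates 2 and 3 (45 regions), so the order carried over in part or hardly at all. Sfpq, a paraspeckle and splicing protein, had folds of 4.78, 4.35 and 5.01, and Rbm33, which takes part in mRNA export, 5.48, 4.62 and 5.54. Hnrnpf, whose protein governs splice site choice, had folds of 5.00, 4.38 and 4.80 at its internal starts, which lie beside that of 4933440N22Rik. Pcbp1, a poly(C)-binding protein, had folds of 4.39, 4.95 and 4.67 in a region of 1469 bp that also covers the start of the lncRNA 1600020E01Rik. Ddx6, a helicase of mRNA decay bodies, had 4.21, 5.14 and 4.51 with the middle 1927 bp downstream of its tabulated start.

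Other genes of the 24 act in chromatin or transcription, a group set by eye and without a background share. Ep300, the acetyltransferase p300, had folds of 4.88, 4.73 and 4.79 (chr15:81585526-81586333). Within the lists it ranked 195 of 906, 43 of 64 and 209 of 294 by q. Nfyc, a subunit of the CCAAT-binding factor NF-Y, had folds of 5.68, 5.19 and 5.09, and Gpbp1, which binds GC-rich promoters, 4.72, 5.10 and 4.60. Adnp had folds of 4.11, 5.09 and 5.41 and ranked 529 of 906, 17 of 64 and 81 of 294 by q, lowest within the list of WT replicate 2. The start shared by Zfp335, a zinc finger transcription factor, and its antisense lncRNA Zfp335os had folds of 4.11, 6.50 and 5.93, and ranked 557 of 906 in replicate 2 but first in replicate 3. Outside that group, Btf3, a subunit of the nascent polypeptide-associated complex, had folds of 4.83, 4.68 and 4.75. Cul1, the scaffold of SCF ubiquitin ligases, had 4.01, 4.15 and 4.82 and ranked 530 of 906, 61 of 64 and 155 of 294 by q. The other regions called in all 3 lists lay at B230219D22Rik, N4bp2, the shared start of Tbck and Aimp1, the shared starts of Rdx and the pseudogene Gm6981, and inside Ywhaz and Btbd9.

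The remaining regions inside genes are read with a limit of the tabulated starts. Ywhaz, a 14-3-3 protein, held a region of 1549 bp (chr15:36792944-36794492) with folds of 4.95, 3.91 and 5.17, and Btbd9 one of 1293 bp (chr17:30575765-30577057) with folds of 3.36, 3.81 and 3.93. Both genes have only their outermost start in the tables used here, so any second start of theirs would not be covered. Whether one exists at the region was not checked. For Ywhaz the start in the window was that of the lncRNA Gm41298.

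**Figure D2:**
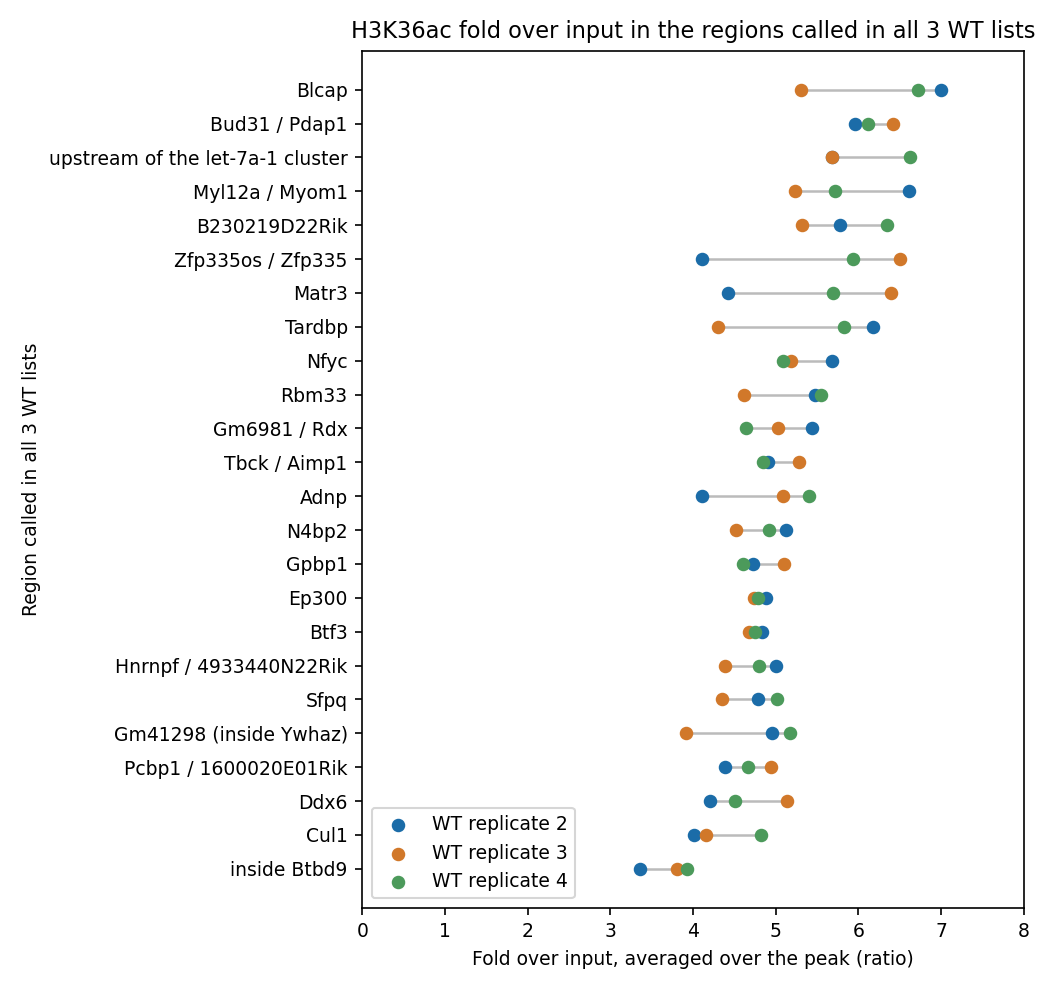
Fold over input (ratio, averaged over the peak) of the 24 regions called in all 3 WT lists, 1 row per region named by its nearest starts, 1 point for each of WT replicates 2, 3 and 4 and a grey line over their range; rows are ordered by their mean. Values run from 3.36 to 7.0, and no replicate is the highest in every row; folds of different lists are not on a shared scale.

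The region at the let-7 cluster was the only distal intergenic one called in all 3 lists. It covered 394 bp on chr13:48546095-48546488, had folds of 5.68, 5.68 and 6.63 in WT replicates 2, 3 and 4, and ranked 17 of 906, 4 of 64 and 11 of 294 by q. The start of Mirlet7a-1 lay 7823 bp from its edge, that of Mirlet7f-1 8178 bp and that of Mirlet7d 9981 bp, all on the minus strand, so the region lay upstream of the 3 hairpins whose seeds are shown above. let-7 microRNAs repress LIN28 and other targets through that seed and increase as many kinds of cells differentiate. Of the 12 genes of the family, 1, Mirlet7i, had a region within 3000 bp. Over all annotated microRNAs, 17 of 1188 (1.43%) had one, and many of these hairpins lie close to the start of another gene. The other 6 distal intergenic regions had 1 call each except chr7:73617895-73618434, called in WT replicates 2 and 4. Gene bodies away from the starts used here held 22 regions (2.06%). Those with the highest -log10 q lay in Mical3 (4.36 in WT replicate 2), Ttc39c (3.40 in replicate 4 and, at another position, 2.31 in replicate 2), Nars (3.16 in replicate 2) and Bicral (2.70 in replicate 2). Of the 21900 protein-coding genes, 432 had no known strand and hence no start here. A region at the start of such a gene counted as gene body, so these regions may include promoter ones. Nars encodes an aminoacyl-tRNA synthetase, and 36 of the 37 genes of that list had a start here. Whether Nars lacked a start was not checked.

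The peaks ranked first differed between the lists. In WT replicate 2 the first 5 promoter peaks by q were at Smndc1, Blcap, Tada3, an adaptor of the SAGA and ATAC acetyltransferase complexes, Dnajb12, a chaperone of the endoplasmic reticulum, and Suds3, a subunit of the Sin3 deacetylase complex, with -log10 q from 7.71 to 7.08. In replicate 3 they were at Zfp335os, Matr3, Bud31, Blcap and Hadha, an enzyme of mitochondrial fatty acid oxidation that shares its region with Hadhb, with -log10 q from 5.10 to 3.50. In replicate 4 they were at Cactin, Alyref, Erbin, Asxl1 and Chtop, with -log10 q from 6.89 to 5.58. Alyref and Chtop both encode mRNA export adaptors and Asxl1 a polycomb-associated protein. Cactin had no peak in the other lists. Alyref ranked 447 of 906 in replicate 2 with a fold of 4.47, against 2 of 294 in replicate 4 with a fold of 7.51. Smndc1, first in replicate 2 with a fold of 6.63, ranked 117 of 294 in replicate 4 with a fold of 5.08.

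The 5 widest promoter regions are named here without grouping by function. They lay at the shared start of Zbtb25 and Zbtb1 (1844 bp), at Atp2b1, a plasma membrane calcium pump (1710 bp), at the corepressor gene Ncor1 (1603 bp), at Sp3, whose protein binds GC boxes (1600 bp), and inside Ywhaz. The first 3 were called in WT replicate 2 alone, where they ranked 409, 809 and 271 of 906 by q.

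Across protein-coding genes, 1171 of 21468 with a start (5.45%) had a promoter peak in at least 1 WT list, 194 (0.904%) in at least 2 and 25 (0.116%) in all 3. By list, the shares were 4.67% in WT replicate 2, 0.345% in replicate 3 and 1.46% in replicate 4, and without replicate 2 it was 1.67% (359 genes) in at least 1 list. Without replicate 2, 29 genes were called in both lists, and without replicate 4 there were 51. Among other kinds of genes, 176 of 11381 lncRNA genes (1.55%) and 12 of 8033 pseudogenes (0.149%) had one. The gene lists below are read against these shares and were not tested. The share of promoters with a region also rose with their observed to expected CpG ratio, described below. It was 5.79% at ratios of 0.6 to 0.8, 11.7% at 0.8 to 1 and 19.4% above 1. At a ratio of at least 0.6, 899 of 8488 promoters had a region. The gene lists were not matched for CpG ratio, so a share above 5.45% is not set apart from that of CpG-rich promoters.

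Splicing and nuclear RNA-binding protein genes had the most members with a peak. Of 153 genes, 42 (27.5%, interval 20.6 to 35.2%) had one in at least 1 list, 15 in at least 2, and Bud31, Tardbp, Matr3, Rbm33, Sfpq and Hnrnpf in all 3. The share was above that of all genes in each list, with 24.8% in WT replicate 2, 5.88% in replicate 3 and 10.5% in replicate 4. Members in 2 lists included Hnrnpab, Rbm39, Ythdc1, Snrpb, Ewsr1 and Hnrnpl, and those in WT replicate 2 alone included Hnrnpa2b1, Srsf5 and Hnrnpu. Without replicate 2 the share was 12.4%, against 1.67% of all genes.

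Genes of translation, other than mitochondrial ribosomal proteins, had high shares that came mostly from the longest list. Cytosolic ribosomal proteins had a peak at 19 of 86 genes (22.1%, interval 13.9 to 32.3%), 18 of them in WT replicate 2. Rpl21 had folds of 5.97 in WT replicate 2 and 5.02 in replicate 4, and Rpl19 had 4.45 in replicate 2 and 5.05 in replicate 3. The share was 20.9% in replicate 2, 2.33% in replicate 3 and 1.16% in replicate 4, the last below that of all genes, and 3.49% without replicate 2. Translation initiation factors had a peak at 12 of 56 genes (21.4%), with Eif5, Eif4g1 and Eif4a1, the last an RNA helicase, in WT replicates 2 and 4. Eif5 had folds of 5.03 and 6.61 there, and shares its region with the small nucleolar RNA Snora28. Without replicate 2 the share of initiation factors was 7.14%. Aminoacyl-tRNA synthetases had 7 of 36 (19.4%, and 5.56% without replicate 2), with Mars1 in 2 lists, while mitochondrial ribosomal proteins had 7 of 83 (8.43%). In 4 of those 7 another gene's start was nearer to the region, so the call may belong to the neighbour.

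Enzymes that write and erase acetylation were among the genes marked. Of 66 genes of acetyltransferases and their partners, a list that includes N-terminal acetyltransferases and the bromodomain proteins of the BET family, 14 (21.2%, interval 12.1 to 33.0%) had a peak. Besides Ep300, Tada3 had folds of 6.01 and 5.79 in WT replicates 2 and 4 and Brd2, a reader of acetylated histones, 3.65 and 4.82 at separate positions that did not overlap. Of 47 HDAC and corepressor genes, 9 (19.1%) had one. Hdac2, a class I deacetylase, had folds of 4.48 and 5.18 in replicates 2 and 3, and Hdac4, a class II deacetylase, 4.27 and 4.49 in replicates 2 and 4. Of 7 sirtuins, Sirt1 had a fold of 4.60 in WT replicate 2. The region near the start of Sirt4, with folds of 4.01 and 4.84 in WT replicates 2 and 4, held the start of the small nuclear RNA gene Gm24265 and had that of Pxn in its window. Without replicate 2 the shares of the acetyltransferase and the deacetylase lists were 7.58% and 6.38%, against 1.67% of all genes. Sirt7 itself, the gene of the deacetylase, had no peak in any WT list.

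Enzymes and readers of methylation at the same lysine had a peak at 6 of 32 genes (18.8%, interval 7.21 to 36.4%). Zmynd11, a reader of trimethylated H3K36 on H3.3, had folds of 4.20 and 5.46 in WT replicates 3 and 4. The methyltransferase gene Ash1l (4.01), Psip1 (4.52) and Morf4l1 (5.51), which encode readers, and the demethylase gene Kdm2a (4.61), whose region lay nearer to 9430078G10Rik, were called in WT replicate 2. Mtf2, a polycomb-like reader, was called in replicate 4 (5.60), and without replicate 2 the share of the list was 6.25%. Of the histone genes, 4 of 61 (6.56%, interval 1.82 to 15.9%) had a peak, a share near that of all genes. They were H3f3a, H3f3b, H1f0 and Macroh2a1, which encode replacement or variant histones.

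Among other housekeeping groups the shares ran from 29.4% to 7.41%. The SUMO pathway had 5 of 17 genes (29.4%), with Sumo2 at folds of 4.20 and 5.24 in WT replicates 2 and 4. Nuclear pore and transport had 10 of 56 (17.9%), with the transport receptors Kpna4, Ipo13 and Xpo6 in replicates 2 and 4. Ubiquitin-conjugating enzymes and deubiquitinases had 14 of 105 (13.3%), chaperones 13 of 100 (13.0%), proteasome subunits 5 of 39 (12.8%), all 5 in WT replicate 2, and ribosome biogenesis 10 of 86 (11.6%). Cyclins, CDKs and the anaphase-promoting complex had 7 of 66 (10.6%), Rab, Arf and COPII traffic 9 of 102 (8.82%), RNA polymerase II and Mediator 8 of 93 (8.60%) and the respiratory chain with ATP synthase 6 of 81 (7.41%). In 5 of the last 6 genes another start lay nearer to the region. The small nucleolar RNA host genes had 2 of 20. The intervals of the proteasome, cyclin, traffic, RNA polymerase II, respiratory chain and host gene lists included the 5.45% of all genes. Without replicate 2 the shares were 17.6% for SUMO, 7.14% for the nuclear pore, 3.81% for ubiquitin enzymes, 4.0% for chaperones, 3.49% for ribosome biogenesis, 4.55% for cyclins, 2.94% for traffic, 3.23% for RNA polymerase II, 3.70% for the respiratory chain and 0 for the proteasome and the host genes, against 1.67% of all genes.

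Few genes of differentiation and of the germ line were in the lists. No undifferentiated spermatogonia marker of 24 had a WT peak, among them Zbtb16, which encodes PLZF, Gfra1, Ret, Id4, Ddx4 and Dazl, and no differentiating spermatogonia marker of 7 did. The marker lists of Sertoli cells (0 of 11), Leydig and interstitial cells (0 of 9), peritubular cells, macrophages and endothelium (0 of 5 each) were empty too, so the peaks neither bear out nor go against the labelled cell type. With such short lists a count of 0 is also compatible with the share of all genes: the interval for the 24 markers reaches 14.2%. The piRNA pathway had 0 of 33 genes (upper bound 10.6%), and meiotic genes 1 of 47 (interval up to 11.3%), Ythdc2, an RNA-binding helicase needed for meiotic entry, so both intervals also include the share of all genes. Developmental patterning factors had 1 of 207 (0.483%, interval 0.0122 to 2.66%), Sox12, and olfactory receptors 0 of 941 (upper bound 0.391%), both with intervals below the 5.45% of all genes. Zfp zinc finger genes had 22 of 394 (5.58%), near that share, and DNA damage response genes 4 of 120 (3.33%): Mre11a, Rad23b, Lig3 and Rad21.

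Some genes named above share their window with others to which the peak could equally belong. Among them are Ewsr1 with Rhbdd3, Hnrnpa2b1 with Cbx3, Mre11a with Ankrd49, Alyref with Anapc11, Tada3 with Arpc4, Brd2 with H2-DMa, Ncor1 with Pigl, Sp3 with Sp3os, Asxl1 with 2500004C02Rik, Ash1l with Dap3, H1f0 with Gcat, Rxrb with Slc39a7, Btf3 with Gm9828, Rbm33 with Gm35602, Cul3 with Gm39667, Eif4a1 with Gm25835, Mars1 with Gm6283, Srsf5 with Gm20337 and Lig3 with Gm11423. For Cnot3 the nearest start was that of the lncRNA Gm15927.

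**Figure D3:**
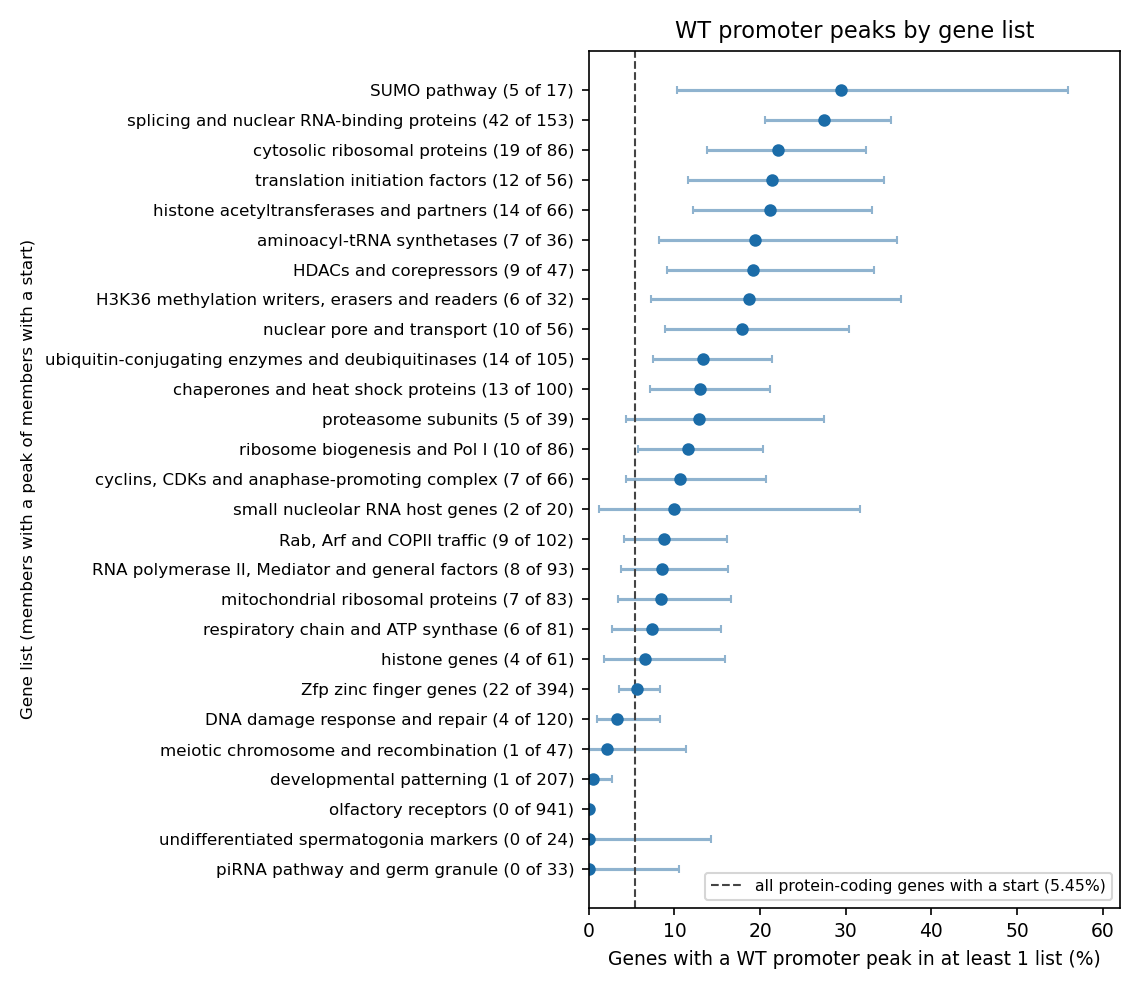
Share of genes (%) with a WT promoter peak in at least 1 list for each gene list with at least 15 members, with exact 95% confidence intervals as bars and the number of members on the label; the dashed line is the share of all protein-coding genes (5.45%). SUMO (29.4%) and splicing and RNA-binding genes (27.5%) stand at the top, and olfactory receptors, undifferentiated spermatogonia markers and piRNA genes at 0.

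No WT peak lay on a sex chromosome. On the X chromosome 0 of 955 protein-coding starts had a peak (exact upper bound 0.386%), and on the Y 0 of 253 (1.45%); taken as at most 3 counts, these zeros allow shares of up to 0.314% and 1.2%. On the autosomes the share was 1171 of 20260, or 5.78% (interval 5.46 to 6.11%). It ran from 3.63% on chromosome 7 to 8.27% on chromosome 5, with 7.98% on chromosome 3. The cells came from male mice, in which X and Y are single-copy, and multiply mapped reads had been removed. The part of either in the zeros of X and Y was not tested. None of the 1264 peaks was on the X. The lists share places and 906 of these peaks came from WT replicate 2, so no limit is put on their X share. Side by side, the 3 Sirt7-/- lists held 33 X peaks of 7476 (0.441%). Peaks are not replicates of a genotype, and the difference was not tested.

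**Figure D4:**
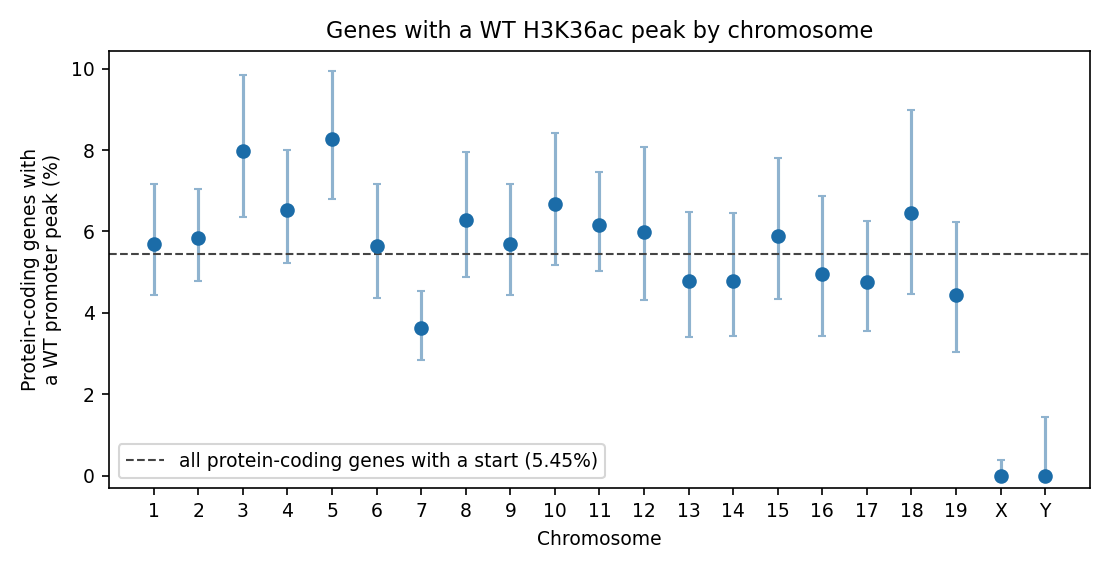
Share of protein-coding genes (%) with a WT promoter peak in at least 1 list on each chromosome, with exact 95% confidence intervals as bars and the share of all genes (5.45%) as a dashed line. Chromosomes 5 (8.27%) and 3 (7.98%) are the highest, chromosome 7 (3.63%) is the lowest autosome, and X and Y stand at 0.

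Promoters under WT regions had more CpG than the other promoters. A RefSeq promoter sequence was found for 17492 protein-coding genes, of which 963 had a WT region within 3000 bp of that start. The observed to expected CpG ratio of the 300 bases had a median of 0.907 (quartiles 0.783 and 1.02) for these 963 and 0.543 (0.208 and 0.810) for the other 16529, with GC contents of 66.7% and 55.7%. A ratio of at least 0.6 was met by 93.4% of the first and 45.9% of the second. The share of promoters with a region was 0.175% below a ratio of 0.2 and 19.4% above a ratio of 1. By list the median ratio was 0.912, 0.888 and 0.911 in WT replicates 2, 3 and 4. Of the sequences shown above, Tardbp had a ratio of 0.952 and Gfra1 one of 0.549, but single genes went the other way. Adnp, with a peak in all 3 lists, had a ratio of 0.578, and Sirt7, with none, had 0.929. GC content can also alter how well chromatin is amplified and sequenced, and its part in the peak calls was not tested.

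**Figure D5:**
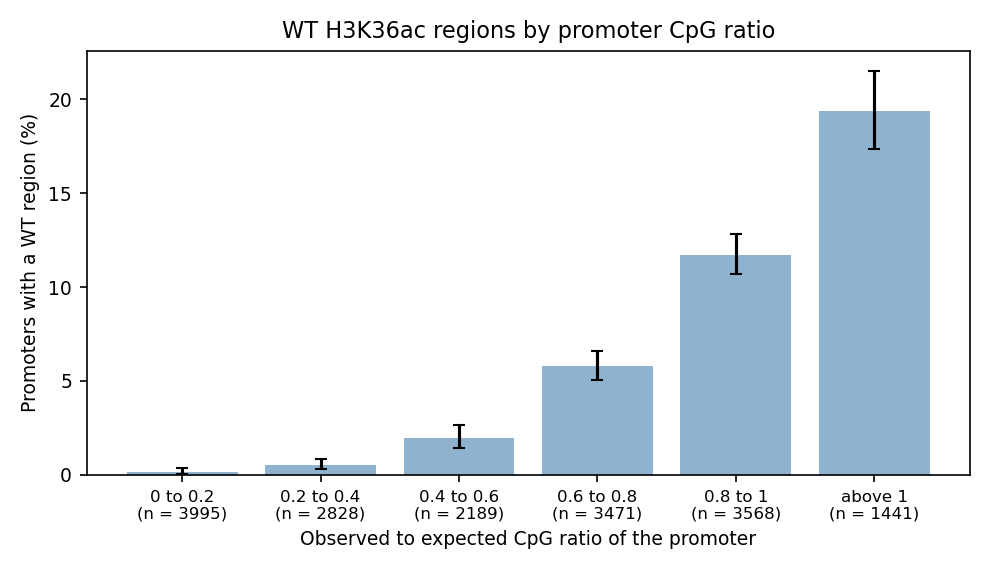
Share of protein-coding promoters (%) with a WT region within 3000 bp in 6 bins of the observed to expected CpG ratio, with exact 95% confidence intervals as error bars and the number of promoters under each bin. The share climbs from 0.175% in the lowest bin to 19.4% in the highest.

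Promoter elements were then searched as fixed letters on both strands of the same 300 bases. The letters TCTCGCGA stood in 7.27% (interval 5.71 to 9.09%) of promoters with a region, 1.16% of those without and 1.5% of all. The YY1 letters AAGATGGCG stood in 6.85% (5.34 to 8.64%), 1.68% and 1.96%. Both differences remained among promoters with a CpG ratio of at least 0.6, with 7.68% against 2.31% for TCTCGCGA and 7.34% against 3.31% for YY1. These CpG-rich promoters still differed in composition. With a region their median CpG ratio was 0.922 and GC content 67.3%, and without one 0.827 and 63.7%. The cut thus does not match the groups for CpG, here or for the elements below. By list, TCTCGCGA was found in 7.11%, 5.0% and 8.66% of the promoters of WT replicates 2, 3 and 4 and the YY1 letters in 7.23%, 8.33% and 4.33%, with 60 promoters in replicate 3. The TATA box TATAAA went the other way, in 3.63% with a region, 13.9% without and 13.3% of all, and 3.67% against 6.05% among the CpG-rich.

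The other elements differed less or changed unevenly among promoters with a CpG ratio of at least 0.6. The GC box GGGCGG was found in 75.4% of promoters with a region, 44.8% without and 46.5% of all, but in 77.9% and 73.9% of the CpG-rich ones. The ETS letters CCGGAAG were found in 18.9%, 11.5% and 11.9%, and in 19.2% and 20.0% of the CpG-rich. The E-box CACGTG stood in 11.6%, 7.70% and 7.92%, the CRE letters TGACGTCA in 4.98%, 2.18% and 2.33%, and the NRF1 letters GCGCATGC in 4.88%, 3.53% and 3.60%. Among the CpG-rich these were 12.2% against 11.5% for the E-box, 5.12% against 3.74% for the CRE and 5.23% against 6.6% for NRF1, the last in the opposite direction. CCAAT stood in 30.2%, 39.5% and 38.9%, and its lower share with a region was as large a difference among the CpG-rich, at 29.1% against 38.6%. The letters ACTACAATT, from an element bound by ZNF143, stood in 0.415%, 0.563% and 0.555%, and in 0.445% and 0.764% of the CpG-rich, with 4 promoters behind the value with a region. Sites of different elements can overlap and were counted separately. These matches describe letters in a window that ends 50 bases after the start, while most peak middles lay further downstream.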

How the data were processed

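H3K36ac ChIP-seq was described in 3 WT samples, from deposited MACS2 broad peak lists. The authors used Bowtie2 2.4.4.1 for alignment to mm10 after trimming with Trim Galore 0.6.6. SAMtools 1.19.2 was among the tools that removed duplicates, multiply mapped reads and reads under a mapping quality of 30. MACS2 2.2.5 was run on each sample with its own input, at a broad cutoff of 0.1, without pooling replicates and without spike-in scaling. The deposited lists give for each peak the authors' score (a truncated form of the -log10 q, not used), the fold over input (a ratio) and the -log10 p and -log10 q. These were used only to rank peaks within a list. The study states the clean reads of each library before alignment; the depth after filtering is not given in the sources used here.

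Gene positions came from the RefSeq table of GRCm38.p6 (49997 genes). Strand came from the RefSeq promoter table or, by symbol and chromosome, from GENCODE vM39, for 98.0% of the 21900 protein-coding genes. The starts of a gene were its outermost bound and the starts of its tabulated promoters, since outermost bounds alone misplace genes with a distant first exon. For sequence features the promoter nearest to a region, or else the first listed, was taken. Promoters of chromosome 18 were not used. Elements were searched by core letters of at most 9 bases, set after the data had been seen. Genes named were those nearest to regions of all 3 lists, the first 5 promoter peaks of each list by q and by fold, the 5 widest promoter regions, up to 6 members of each gene list, and members of the marker, sirtuin, acetyltransferase and H3K36 methylation lists; single genes beyond these were chosen after their values were seen, as were the promoters printed. Gene lists were set by symbol. The members and lists were chosen with earlier results of these data known. No comparison with Sirt7-/- cells was tested, and no p-value is given. Alternatives were other windows, q and width minimums, merging rules, starts and left-out replicates. The annotation was tested on 1000 simulated peaks and the count of lists on 500 simulated regions, and 100% came out right. The tools were NumPy 2.4.6 and pandas 2.3.3 with SciPy 1.17.1 and matplotlib 3.10.9, under Python 3.11.15.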

Additional observations from a re-analysis of the deposited data

How the results depend on the processing

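No paired analysis was possible because the results come from no test between groups, and the WT samples share their replicate numbers only with their inputs and with Sirt7-/- samples. With a -log10 q of at least 2, the merged regions fell from 1066 to 610, those of at least 2 lists from 174 to 80, those of all 3 lists from 24 to 9 and the protein-coding genes from 1171 to 678. A width of at least 500 bp left 340 regions, and the 64 best peaks of each list gave 20 regions of at least 2 lists. The promoter share of 97.3% became 95.6% with a window of 1000 bp, 95.1% with protein-coding starts only, 98.3% for regions of at least 2 lists, and 91.6% with the outermost start of each gene only, which was added once the data had been seen. The median CpG ratio was 0.929 for promoters of at least 2 lists, against 0.907, and with the first listed promoter of every gene, also added later, it was 0.889 with a region and 0.543 without. Leaving out a replicate gave 331 (without replicate 2) to 1051 regions, 27 (without replicate 2) to 149 regions of at least 2 lists, 45 without replicate 4, 359 (without replicate 2) to 1152 genes, and 29 (without replicate 2) to 164 genes of at least 2 lists, 51 without replicate 4. The promoter share stayed between 97.0% and 97.5%, the median width between 287 and 335 bp and the downstream share between 73.2% and 77.4%. The number of gene lists with a share above that of all protein-coding genes was 22 of 34 and stayed between 18 and 22 under the alternatives of window, nearest start, q minimum, outermost start and left-out replicate. Of 238 list shares under alternatives, 25 left the interval of the main share, 19 of them without replicate 2. Ranked by fold instead of q, 10 of the 15 first-ranked promoter peaks kept a rank within 1.5 times the first. Counts of peaks and genes thus depend on WT replicate 2 and on the q threshold, while the reads of each library left after filtering, which are not given in the sources used here, limit what a missing peak can show.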
